A study of Mus musculus with 8 samples.

Results

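Day 5 only sites were stretches of open chromatin found in fibroblasts at day 5 of reprogramming and in none of the other populations studied. They were chosen by the presence or absence of peaks in 4 deposited lists. Peaks lying within 400 bp of each other were merged, and a merged region was kept when it held a day 5 peak and no peak from mouse embryonic fibroblasts (MEFs), from day 10 or from embryonic stem cells (ESCs). The rule left 5933 of 101701 merged regions (5.83%), or 16.5% of the 36043 regions with a day 5 peak. Because peak presence was the rule, the number of sites and their fold enrichments are given as description without a test.

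Open chromatin was profiled by ATAC-seq, an assay that tags exposed DNA with a transposase, in 8 libraries, 2 for each population. The starting MEFs and the cells at days 5 and 10 were labelled Wildtype for Jmjd3 and carried the C57BL/6J-OG2 background, whose Oct4-GFP transgene reports pluripotency. Reprogramming cells received retroviruses encoding OCT4, SOX2, KLF4 and MYC (OSKM) plus a control vector (FLAG), and grew in ESC medium to which vitamin C was added at 50 µg/ml. The 2 ESC libraries differed in label, 1 being C57Bl6J and the other C57BL/6J-OG2, and the sources disagree on whether the ESCs grew on feeders or on gelatin in 2i/L. OSKM cultures are mixtures in which few cells reach pluripotency, and in such bulk libraries a site open in few cells cannot be told apart from one weakly open in many.

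Each population was represented by 1 list built from both libraries, so replicates could not be compared and the intervals given throughout are 95% intervals for counting error alone. The lists held between 35226 and 56514 peaks, and the number of reads behind them is unknown, so absence from a list may also reflect its depth. As a check on the labels, a peak lay within 1 kb of a start site of 27 of 27 fibroblast and mesenchymal genes in MEFs, 21 in ESCs and 24 on each day. Among 29 pluripotency genes the number was 27 in ESCs, 19 in MEFs, 16 at day 5 and 19 at day 10. Many genes of both lists had a peak in every population, so the lists separate MEFs from ESCs only in part. Nanog, Zfp42, Dppa4 and Dppa5a had such a peak in ESCs and in none of the other lists, and Thy1 and Postn, fibroblast surface and matrix genes, had it in MEFs only.

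During reprogramming, OSKM engage many sites that are closed in fibroblasts, and some of these open only for a time before the pluripotent pattern is set. OCT4 binds an octamer sequence, SOX2 a short AT-rich element and KLF4 a C-rich box, whereas AP-1, made of FOS and JUN proteins, occupies enhancers of fibroblasts and of cells under stress or growth stimulation.

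The sequences of 5 sites are shown because they had the highest fold enrichment among sites that held a match to one of these elements (a pair for AP-1), lay outside exons and were not mostly repeat. All are 200 bp windows centered on the peak, plus strand, build mm10 (GRCm38), with the match in capitals. The letters searched on both strands were TGACTCA or TGAGTCA for AP-1, ATGCAAAT for the octamer, CCATTGT or CCTTTGT for SOX, and CCACACCC, CCACGCCC, CCCCACCC or CCCCGCCC for KLF. A match is a description of the sequence and not a bound site. The windows are an intron of Epha7, an ephrin receptor (chr4:28921038-28921237), an intron of Pde4d, a cAMP phosphodiesterase (chr13:108547898-108548097), and 3 stretches between genes at chr3:46847500-46847699, chr2:54367846-54368045 and chr12:93210466-93210665.
Epha7 intron, AP-1: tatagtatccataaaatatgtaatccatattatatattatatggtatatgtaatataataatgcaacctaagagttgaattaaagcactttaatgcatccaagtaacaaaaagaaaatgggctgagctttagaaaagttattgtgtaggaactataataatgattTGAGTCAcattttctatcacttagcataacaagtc
Pde4d intron, AP-1: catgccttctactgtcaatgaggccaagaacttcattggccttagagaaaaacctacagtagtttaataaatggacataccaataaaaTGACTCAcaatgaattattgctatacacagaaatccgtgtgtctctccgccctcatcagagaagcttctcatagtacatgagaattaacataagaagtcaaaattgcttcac
Chromosome 3, octamer: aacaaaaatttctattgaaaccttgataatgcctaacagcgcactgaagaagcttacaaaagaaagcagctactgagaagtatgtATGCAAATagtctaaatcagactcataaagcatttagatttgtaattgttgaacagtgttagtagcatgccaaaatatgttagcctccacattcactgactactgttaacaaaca
Chromosome 2, SOX: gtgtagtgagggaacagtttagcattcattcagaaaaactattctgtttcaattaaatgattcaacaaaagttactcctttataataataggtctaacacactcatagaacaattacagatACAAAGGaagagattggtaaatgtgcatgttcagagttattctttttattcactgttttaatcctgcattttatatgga
Chromosome 12, KLF: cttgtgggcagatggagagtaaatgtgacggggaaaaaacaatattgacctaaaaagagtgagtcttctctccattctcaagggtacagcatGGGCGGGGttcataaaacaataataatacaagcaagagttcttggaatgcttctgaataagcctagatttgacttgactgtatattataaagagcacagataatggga

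All 5 windows were AT-rich. Their GC contents were 26.5% in Epha7, 37.5% in Pde4d, 34% on chromosome 3, 30% on chromosome 2 and 39% on chromosome 12. The match lay 65 bp downstream of the peak midpoint in Epha7, 12 bp upstream in Pde4d, 15 bp upstream on chromosome 3, 21 bp downstream on chromosome 2 and 8 bp upstream on chromosome 12, counted along the plus strand. The nearest protein-coding start site was 48.9 kb away in Epha7, 97.7 kb in Pde4d, 399 kb on chromosome 3 (Pabpc4l), 68.0 kb on chromosome 2 (Galnt13) and 1361 kb on chromosome 12 (Sel1l).

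Every day 5 only site consisted of a single day 5 peak. The median fold enrichment over background given by the authors was 3.49 (interquartile range 3.11 to 3.98) and the median width 398 bp (302 to 542 bp). The 6968 regions open on both day 5 and day 10, but in neither MEFs nor ESCs, had a median day 5 fold of 3.94 and a median width of 588 bp. Day 5 peaks shared with MEFs or ESCs had medians of 3.73 and 689 bp. Day 5 only sites were thus narrower and weaker on both measures than the other day 5 classes. Their median −log10 q was 3.20, against 5.12 for the regions open on both days. Regions open at day 10 only, valued in the day 10 list, had a median fold of 2.99, width of 400 bp and −log10 q of 2.42. Narrow and weak peaks were thus not particular to the day 5 only class.

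When all 36219 day 5 peaks were ranked by fold enrichment and cut into 10 equal groups, day 5 only sites made up 19.6% of the lowest group, 23.4% of the next and 6.85% of the highest. Regions open on both days rose from 10.5% of the lowest group to 27.8% of the highest. The class was thus more frequent among weaker peaks, although 248 of its sites stood in the highest group.

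**Figure D1:**
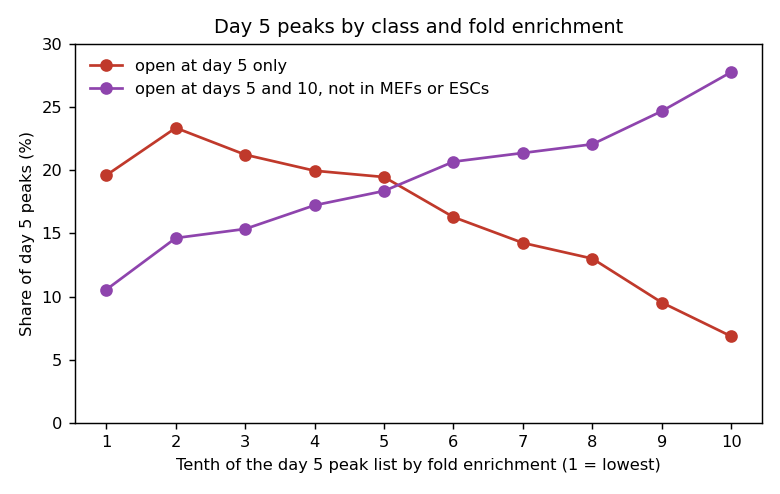
Share of day 5 peaks (%, vertical axis) that were open at day 5 only (red) or on both days but not in MEFs or ESCs (purple), across 10 equal groups of day 5 peaks ordered by fold enrichment (horizontal axis). The red line falls from 23.4% in the second group to 6.85% in the highest, and the purple line climbs to 27.8%.

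At the threshold of the rule, 20 day 5 peaks lay over 300 and up to 400 bp from the nearest peak of another list and were left out, with a median fold of 3.15 and a median width of 354.5 bp. The 27 sites kept with a gap over 400 and up to 500 bp had medians of 3.11 and 420 bp. These 27 were the sites nearest the border of the rule. The median gap to the nearest peak was 21.1 kb for MEFs, 37.2 kb for day 10 and 28.7 kb for ESCs. A MEF peak lay within 10 kb of 31.8% of sites, a day 10 peak within 10 kb of 20.9%, and an ESC peak within 10 kb of 25.4%. Regions open on both days lay closer to MEF peaks (median 14.7 kb), and regions open at day 10 only lay closer still (9.81 kb).

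The 10 sites with the highest fold enrichment ranged from 6.28 to 7.45. The highest (chr3:10934133-10934738) lay between genes, 494 kb from the start of Snx16, a sorting nexin, and ranked 47 among all day 5 peaks. The nearest day 10 and ESC peaks were 16.6 kb and 16.3 kb away. The Epha7 site followed with a fold of 7.38, and no MEF, day 10 or ESC peak lay within 45 kb of it. The chromosome 3 octamer site had a fold of 7.29 and the Pde4d site 6.94, with a MEF peak 4.76 kb from the latter. These 4 were among the 100 strongest day 5 peaks of any class.

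The next 6 sites were mostly between genes too. A site with a fold of 6.73 on chromosome 5 lay 999 kb from Pcdh7, which encodes a protocadherin. A site with a fold of 6.51 on chromosome 1 lay 273 kb from Fam174a, the nearest protein-coding gene. That site was 0.121 kb from the annotated start of Gm23181 and 5.56 kb from an ESC peak. The SOX site shown above, near Galnt13, had a fold of 6.36. On the X chromosome, an intron of Bmx, a TEC family tyrosine kinase, held a site with a fold of 6.32. The remaining sites, with folds of 6.31 and 6.28, lay 82.0 kb from Epdr1 and 321 kb from Olfm4. Of the 10 strongest sites, 7 were between genes and 3 in introns. The widest site, 2091 bp in an intron of Nav3 (chr10:110120978-110123068), had a fold of 3.09, below the median of the class.

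The rule did not use position relative to genes. It did leave out day 5 regions shared with MEFs or ESCs, 53.4% of which covered a start site. The contrast with that class is therefore given as description only. Day 5 only sites lay more often between genes, and farther from start sites, than the classes they were compared with. In the GENCODE annotation, 52.0% lay between genes, 41.7% in introns only, 5.33% over an exon without a start site and 0.944% over a start site. The share between genes was 42.1% for regions open on both days, a difference of 9.93 percentage points (8.21 to 11.6, higher on 19 of 20 chromosomes), and 34.2% for regions open at day 10 only, a difference of 17.8 points (15.8 to 19.8, higher on 20 of 20).

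The median distance to a protein-coding start site was 72.5 kb for day 5 only sites, 42.4 kb for regions open on both days and 19.8 kb for regions open at day 10 only. Sites over 100 kb from any protein-coding start made up 43.8% of the class. This share exceeded that of regions open on both days (32.8%) by 11.0 points (9.33 to 12.7) and that of day 10 only regions (16.0%) by 27.8 points (26.0 to 29.5), in each case on 20 of 20 chromosomes. Among day 5 regions shared with MEFs or ESCs the share was 9.20%. The distance also went with peak strength inside the class. From the weakest to the strongest of 4 equal groups by fold, the median distance rose from 38.6 kb to 70.0 kb, 84.0 kb and 111 kb.

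**Figure D2:**
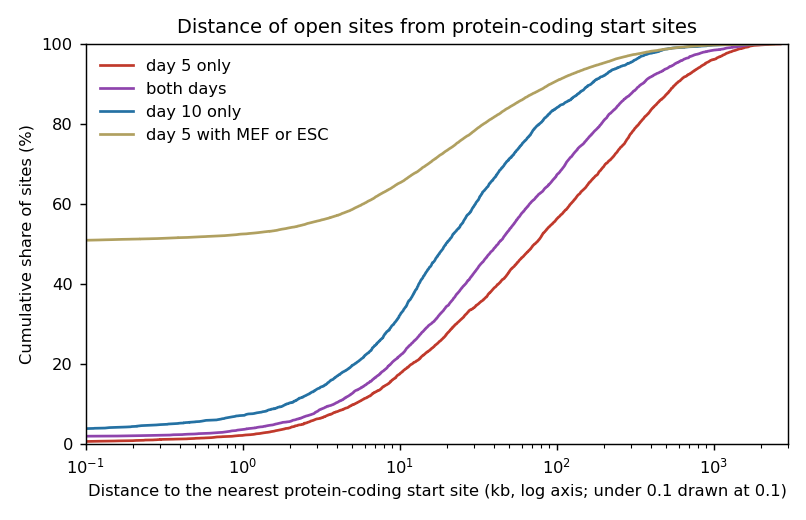
Cumulative share of sites (%, vertical axis) by distance to the nearest protein-coding start site (kb, log axis; distances under 0.1 kb are drawn at 0.1) for the 4 classes of region. The day 5 only curve (red) lies farthest to the right, with a median of 72.5 kb against 42.4 kb for both days (purple) and 19.8 kb for day 10 only (blue).

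Only 32 day 5 only sites covered a protein-coding start site. The highest fold among them was 4.35 at Dach2, a transcriptional cofactor gene, followed by 4.21 at the olfactory receptor gene Olfr881, 4.15 at Tmtc2 and 4.09 at Grik1, a kainate receptor gene. Others with lower values included Igf1r (2.89), which encodes the receptor for insulin-like growth factor 1, and Smarca2 (2.47), an ATPase of the SWI/SNF chromatin remodeling complex. These genes were chosen for mention after their values were seen. The starts of all annotated transcripts were counted, so a covered start may lie inside a gene and need not be its main promoter. The Tmtc2 site (chr10:105535584-105536626), for example, lay inside its gene, which is on the minus strand and extends to 105574451.

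Genes that held sites were longer than most. A protein-coding gene was overlapped by 2468 sites (41.6%), and 1710 genes (7.80% of 21924) held at least 1 site, 165 at least 3 and 13 at least 8. The median length of genes with a site was 123 kb, against 17.4 kb for all protein-coding genes. A longer gene body has more room for regions of any class, so this contrast is not read as a trait of the day 5 only sites. Genes of 200 kb or longer held 20.9% of the day 5 only sites, 22.5% of the regions open on both days and 19.7% of those open at day 10 only, so the class did not stand above both others in this respect.

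The 10 genes with most sites were 689 to 2961 kb long. Ptprd, a receptor tyrosine phosphatase (chr4:75941238-78211961), held 14 day 5 only sites, with 2 regions open on both days and 1 open at day 10 only. Of all peaks in its body, 21 were in the day 5 list, 15 in the MEF list, 10 in the ESC list and 6 in the day 10 list. Dcc, the netrin receptor, held 11, and its body had 15 day 5 peaks, 8 MEF peaks, 7 ESC peaks and 3 day 10 peaks. Fgfr2 also held 11, but its annotated body spans 2961 kb and contains many peaks of every list, 67 of them at day 5. Because each day 5 only site adds a peak to the day 5 list and to no other, genes picked for such sites have a day 5 count that the choice itself raises, and nothing is read from it.

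Dlg2, a postsynaptic scaffold, held 10 sites, and had 32 MEF peaks, 27 day 5 peaks, 12 ESC peaks and 11 day 10 peaks. The ERBB family receptor gene Erbb4, the catenin gene Ctnna2, Naaladl2 and the neurexin gene Nrxn3 held 9 each. Plcb1, a phospholipase C gene, held 8, as did Rbms3, Sgcd and Dmd. Rbms3 had 31 MEF peaks and 19 day 5 peaks, whereas Erbb4 had 4 and 13, and Naaladl2 5 and 13. Plcb1 was denser, with 1.16 day 5 only sites per 100 kb against 0.617 in Ptprd.

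Sites seldom lay together. Only 329 (5.55%) had another day 5 only site within 10 kb, in 162 clusters. The corresponding shares were 7.99% for regions open on both days and 5.88% for day 10 only. The largest cluster held 4 sites over 26.4 kb (chr14:38322644-38349055), 1150 kb from the start of Nrg3, which encodes a neuregulin. Folds there were 3.07 to 3.78, and no peak of the other lists lay inside it. Clusters of 3 sites lay 71.5 kb from Pou3f2, a neural POU factor gene, in Ano3, and 133 kb from Slc35b3.

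Across autosomes, the density of sites ranged from 1.62 per Mb on chromosome 7 to 2.82 per Mb on chromosome 1, with 2.18 per Mb over the whole genome. As a share of day 5 peaks, they were least frequent on chromosome 11 (10.8%) and most frequent among autosomes on chromosome 14 (21.9%). On the X chromosome the density was 1.61 per Mb, and 276 of 1015 day 5 peaks (27.2%) belonged to the class.

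Base composition, which the rule did not use, set the class apart from the other 3 classes compared. In the 200 bp windows, GC content averaged 38.1% ± 6.86 (SD over 5933 windows), a difference of −2.04 points from their own flanks 1 kb to each side (−2.23 to −1.85). It was 40.8% in regions open on both days, 45.8% at day 10 only and 56.1% in day 5 regions shared with MEFs or ESCs. Day 5 only sites differed from these by −2.73 points (−2.97 to −2.49), −7.69 points (−8.01 to −7.38) and −18.1 points (−18.3 to −17.8). The last value is against the shared class that the rule left out, in which 53.4% of regions covered a start site, and is description only. Within the class, GC content fell from 40.3% in the weakest of the 4 groups by fold to 36.3% in the strongest.

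The surroundings of the sites were AT-rich as well. The genome was divided into 100 kb bins, and the bins into 5 equal groups by GC content, from 28.5 to 38.1% in the lowest to 45.1 to 58.9% in the highest. The most AT-rich group held 28.5% of day 5 only sites (27.3 to 29.6), 14.6% of regions open on both days and 3.99% of day 10 only regions. The differences were 13.8 points (12.4 to 15.2) and 24.5 points (23.1 to 25.8), with day 5 only sites higher on 20 of 20 chromosomes in both comparisons. Regions open in MEFs alone had 7.40% there and regions open in ESCs alone 8.31%. An even spread over the bins would give 20% in each group, and of these 5 classes the day 5 only sites were the 1 class above that level in the most AT-rich group.

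At the opposite end, the most GC-rich group held 9.61% of day 5 only sites, 19.7% of regions open on both days and 43.3% of day 10 only regions. The number of day 5 only sites per Mb fell at each step, from 3.29 in the most AT-rich group through 2.93, 2.31 and 1.93 to 1.11 in the most GC-rich. Leaving out sites within 5 kb of any annotated start site gave 31.5% of day 5 only sites in the most AT-rich group, against 17.0% for both days and 4.91% for day 10 only.

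**Figure D3:**
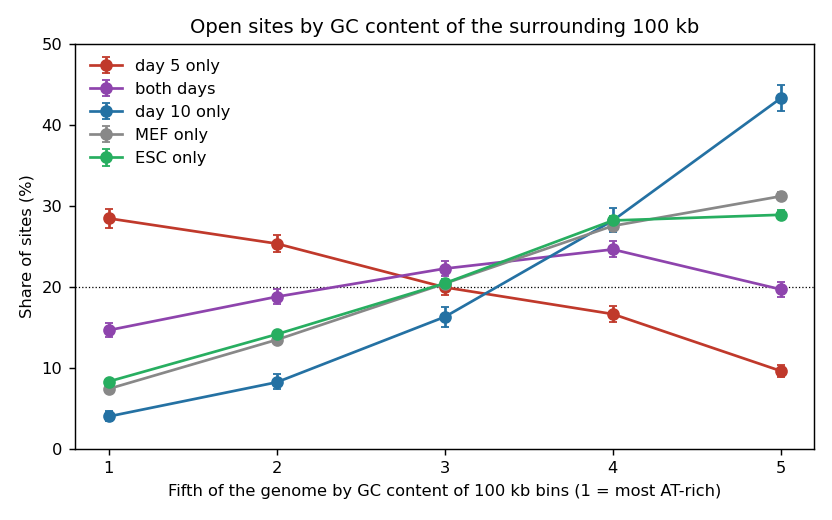
Share of sites (%, vertical axis) in 5 equal groups of 100 kb bins ordered by GC content (horizontal axis, 1 being the most AT-rich), with 95% Wilson intervals and a dotted line at the even share of 20%. Day 5 only sites (red) fall from 28.5% to 9.61%, while day 10 only regions (blue) climb from 3.99% to 43.3%.

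Repeats masked in the reference took up 21.5% of the bases of day 5 only windows and 29.7% of their flanks. The share was 17.4% in regions open on both days and 15.3% at day 10 only. More than 50% of the window was masked at 661 sites (11.1%), against 6.66% of regions open on both days and 5.93% at day 10 only.

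Among the 4 elements shown above, AP-1 was the 1 that was more frequent in day 5 only sites than in each of the other 3 classes. A match was found in 9.03% of windows and in 3.18% of flanks, a ratio of 2.84. Regions open on both days had 6.57%, lower by 2.46 points (1.53 to 3.40, on 18 of 20 chromosomes). Day 10 only regions had 4.13%, lower by 4.91 points (3.90 to 5.88, on 19 of 20) and within counting error of their own flanks (3.38%). Day 5 regions shared with MEFs or ESCs had 7.18%, lower by 1.86 points (1.08 to 2.68). Of that shared class, 53.4% covered a start site, against 0.944% of day 5 only sites. AP-1 was not compared with it away from start sites, so the classes are unlike in position.

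The AP-1 difference between day 5 only and day 10 only sites remained when base composition was matched. It was positive in each of 5 bins of window GC content, from 4.40 to 6.61 points, and 5.81 points (4.76 to 6.87) when these bins were combined with the weights of the day 5 only sites. Among sites over 5 kb from a start site it was 5.23 points (4.09 to 6.32). Matches were also more frequent in stronger peaks, at 7.62% in the weakest of the 4 groups by fold and 11.0% in the strongest.

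For the octamer and SOX elements the difference from regions open on both days was within counting error. The octamer occurred in 3.84% of day 5 only windows and 1.60% of flanks, and differed from regions open on both days by −0.51 points (−1.19 to 0.18) and from day 10 only regions by −0.57 points (−1.44 to 0.25), intervals that include 0. SOX matches occurred in 15.9% of windows and 7.09% of flanks. The difference was −0.47 points from regions open on both days (−1.74 to 0.81) and 2.81 points from day 10 only regions (1.34 to 4.25, higher on 16 of 20 chromosomes). Both elements were more frequent in the strongest than in the weakest group by fold, with 4.85% and 3.10% for the octamer and 18.1% and 14.6% for SOX.

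KLF went the other way. Its matches were found in 8.21% of day 5 only windows and 3.38% of flanks, but in 11.8% of regions open on both days and 14.2% of day 10 only regions. The differences were −3.62 points (−4.65 to −2.58, lower on 17 of 20 chromosomes) and −6.01 points (−7.39 to −4.68, lower on 19 of 20). The flanks of the 3 classes differed in the same order, at 3.38%, 4.27% and 5.89%. The ratio of windows to flanks was 2.43, 2.77 and 2.41. Within the class, KLF matches fell from 9.58% in the weakest group by fold to 6.87% in the strongest.

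**Figure D4:**
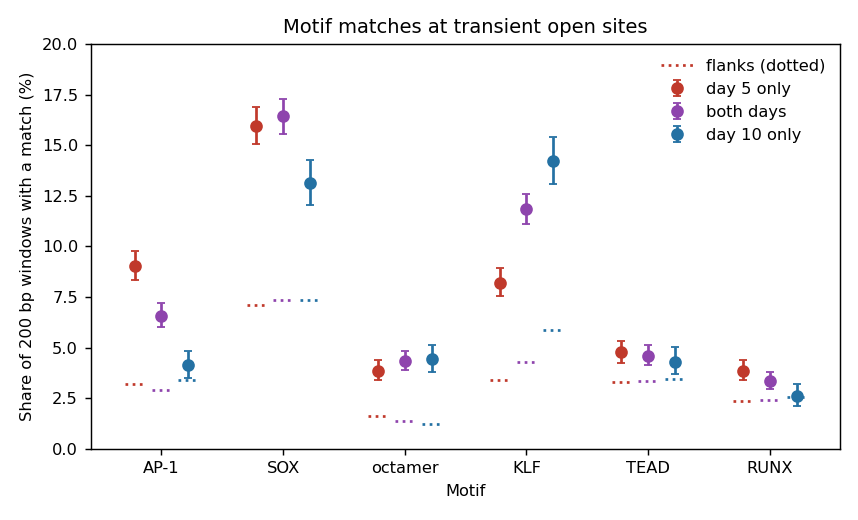
Share of 200 bp windows with at least 1 match (%, vertical axis) for 6 motifs in sites open at day 5 only (red), on both days (purple) and at day 10 only (blue), with 95% Wilson intervals and the share in flanks 1 kb away as dotted marks. AP-1 is highest at day 5 only (9.03%) and KLF highest at day 10 only (14.2%).

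Matches to the 4 elements gathered at the peak midpoint. AP-1 density in the central 100 bp was 0.494 matches per kb per site in day 5 only sites and 0.149 more than 800 bp away, a ratio of 3.31. The ratio was 2.31 in regions open on both days and 1.28 in day 10 only regions. For SOX the ratios were 2.36, 2.60 and 1.79, for the octamer 2.50, 2.79 and 3.56, and for KLF 2.53, 2.74 and 2.19, in the same order. AP-1 was thus the element with the steepest central rise in day 5 only sites and the shallowest in day 10 only regions.

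**Figure D5:**
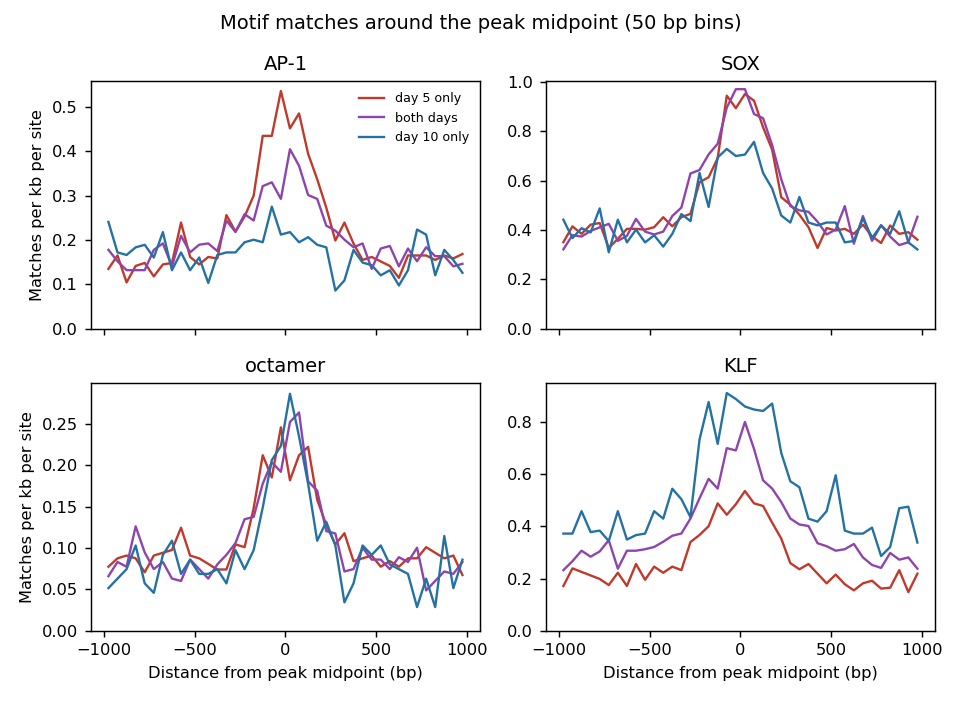
Matches per kb per site (vertical axes) in 50 bp bins of distance from the peak midpoint (horizontal axes, bp) for AP-1, SOX, octamer and KLF in the 3 classes. The red AP-1 line of day 5 only sites peaks at 0.536, while the blue line of day 10 only regions reaches 0.275.

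At least 1 of the 4 elements was present in 32.7% of day 5 only windows and 14.5% of flank windows, and at least 2 in 4.20% and 0.742%. No match to any of them was found in 67.3%. SOX matches occurred in 18.8% of the 536 windows with an AP-1 match (15.8 to 22.4) and 15.7% of the others (14.7 to 16.7), and octamer matches in 3.73% (2.43 to 5.69) and 3.85% (3.37 to 4.40). The intervals overlap in both pairs.

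Of the other motifs searched, RUNX (TGTGGTTA or TGTGGTTT) was found in 3.84% of day 5 only windows and 2.36% of flanks. It exceeded day 10 only regions (2.61%) by 1.23 points (0.491 to 1.94). The difference from regions open on both days (3.34%) was 0.499 points (−0.143 to 1.15), within counting error. TEAD (ACATTCCA, ACATTCCT, GCATTCCA or GCATTCCT), read by effectors of Hippo signaling, was found in 4.77% and 3.28%, and differed from day 10 only regions by 0.469 points (−0.42 to 1.32). The CTCF motif, bound by the insulator protein CTCF, was rare but concentrated, in 0.438% of windows (26 sites) and 0.0421% of flanks. It was in 0.100% of regions open on both days (7 regions) and 1.09% of day 10 only regions. The E-box CACGTG, which MYC binds, was in 1.23% of windows, and differed from the flanks (1.64%) by −0.41 points (−0.76 to −0.033). TFAP2 (GCCNNNGGC) was at the level of the flanks, with 2.01% and 1.93%.

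Short sequences were also ranked without preset motifs. All 8-letter sequences found in at least 20 windows (10621, each counted with its reverse complement) were ranked by their ratio of windows to flanks on the odd-numbered autosomes, and the leading 10 were then counted on the even-numbered autosomes. On these, CCACACCC, a KLF sequence, was in 4.20% of windows and 1.02% of flanks, and AGGGTGTG, which shares GGGTGTG with the reverse complement of that box, in 2.51% and 0.636%. ATGACTCA, an AP-1 sequence, was in 3.67% and 0.936%. Its share was 2.19% in regions open on both days and 1.12% in day 10 only regions.

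A further group carried ACAAT, the core letters of SOX elements. AACAATAG was in 3.21% of even-autosome windows and 0.848% of flanks, and ACAATAGC in 1.94% and 0.618%. In day 10 only regions each was in 0.747%. The octamer-like ATGCTAAT was in 2.72% and 0.918%, and the others were GGCTACTA (0.848% and 0.247%), GATGAATA (1.77% and 1.04%), GTTATGTA (1.41% and 0.636%) and GTTAGTCA (0.883% and 0.406%). All 10 were more frequent in windows than in flanks on the autosomes that had not been used to choose them.

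Day 5 only sites were last set against loci of gene lists for the programs known to change in reprogramming. A day 5 only site lay within 50 kb of a start site of 3623 of 21924 protein-coding genes, a background of 16.5%. Over the 237 listed genes the number was 45 (19.0%), and the median number of sites per gene was 0 in every list and over all genes. No expression was measured in these libraries, so the counts describe position only.

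The fibroblast and mesenchymal list lay furthest above the background, with 12 of 27 genes (44.4%). They were Prrx1, Zeb2, Tbx15 and Runx2, which encode transcription factors, the collagen genes Col1a1, Col1a2 and Col5a2, the surface and adhesion genes Thy1 and Cdh2, and Tgfb2, Tgfb3 and Tgfbr2 of TGFβ signaling. Prrx1, Col5a2 and Cdh2 had 2 sites each and the others 1. The same list had 13 of 27 genes near a region open on both days, where the background was 22.7%, and 4 of 27 (14.8%) near a day 10 only region, where 3945 of 21924 genes had one. With a window of 20 kb, 6 of 27 genes (22.2%) had a day 5 only site beside a background of 8.38%, and with 100 kb, 14 (51.9%) beside 27.5%. The list was written with earlier results of these data known and was described by counts only. A gene with several annotated starts has a wider search span, and the background was not matched for this. Over all 237 listed genes, 79 (33.3%) lay near a region open on both days, also above the background of 22.7%.

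The epithelial list, whose genes are switched on in the mesenchymal-to-epithelial transition, had 2 of 24 genes with a day 5 only site (Grhl2 and Spint1), and the keratinocyte list 2 of 18 (Perp and Itga6). The background was 16.5%, and with counts this small no difference from it is read from either share (8.33% and 11.1%). With a window of 100 kb the epithelial count was 8 of 24 (33.3%) and the keratinocyte count 3 of 18 (16.7%), beside a background of 27.5%. Within 50 kb of regions open on both days these lists had 7 of 24 (29.2%) and 8 of 18 genes (44.4%), where the background was 22.7%. For pluripotency the count was 5 of 29 (17.2%), near the background, with 1 site each at Zfp42, Tfcp2l1, Prdm14 and Fgf4 among them. Within 20 kb it was 1 of 29 (3.45%), beside 8.38%, and within 100 kb 6 of 29 (20.7%), beside 27.5%. Within 50 kb of regions open on both days it was 8 of 29 (27.6%), where the background was 22.7%. Near day 10 only regions it was also 8 of 29, where 3945 of 21924 genes (17.994%) had one. No difference is read from these small counts.

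Neural development genes had 8 of 39 (20.5%), beside the background of 16.5%. Among them were the guidance genes Robo1, Robo2 and Slit2 and the adhesion genes Nrcam and Cntn4, with 2 sites each. Near regions open on both days the count was 14 of 39 (35.9%), where the background was 22.7%. The WNT pathway had 7 of 44 (15.9%), including Wnt11 with 2 sites and Sfrp4, Tcf7l2 and Lgr5 with 1. It had 17 of 44 (38.6%) near regions open on both days. Trophoblast genes had 3 of 15 (20%), among them Gcm1 with 2 sites, and endoderm genes 2 of 14 (14.3%). Near regions open on both days these lists had 3 of 15 and 5 of 14. None of the 4 reprogramming factor genes had a day 5 only site.

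For the JNK pathway and AP-1 the count was 4 of 24, namely Map2k4, Mapk10, Jun and Atf3. Map2k4, which encodes a kinase that activates JNK, was the 1 listed gene with 3 sites within 50 kb. Of all 21924 protein-coding genes, 96 had at least 3. Map2k4 had no region open on both days or at day 10 only in that window. Jun and Atf3, which encode bZIP factors of the AP-1 and ATF families, had 1 day 5 only site each and neither of the other transient classes. The list as a whole was at the background (16.7%). Of its 24 genes, 8 (33.3%) had a day 10 only region, where 3945 of 21924 genes (17.994%) had one. With counts this small no difference is read from that share.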

How the data were processed

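The authors mapped ATAC-seq reads to mm10 with Bowtie2 (version 2.2.0 in the submitters' processing notes, another in the methods) and removed reads of low mapping quality, mitochondrial reads and reads with several positions. The peak caller and its settings are not given in the sources used here. The authors deposited 1 peak list per population of 2 libraries, with 4 lists for 8 libraries. Each deposited peak carries a score, the ratio of its signal to background (fold enrichment) and the −log10 q-value, whose lowest value lay just above 1. All peak names come from replicate 1, so intervals appear to be replicate 1 peaks trimmed to their overlap with replicate 2, which no source states. The score and fold then describe the whole replicate 1 peak. The column of p-values was not used, and 0 columns belonged to other samples. The lists give no read numbers, so depth is unknown.

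Peaks within 400 bp were merged. Position came from the mouse GENCODE release M21 (132666 start sites, those of all annotated transcripts), and sequence from GRCm38. Both strands of the 200 bp centered on the peak midpoint were searched for motifs, with windows 1 kb to each side as flanks. Shares carry 95% Wilson intervals and differences 95% Newcombe intervals (for GC content, normal intervals), counted also on each of 20 chromosomes. With 1 list per population, no test across replicates was possible. Merging, motif search and intervals were checked on simulated data. Python 3.11.15, numpy 2.4.6 and matplotlib 3.10.9 were used.

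The sites named were the 10 of highest fold enrichment, the widest and the largest cluster, the genes named were the 10 with most sites and listed genes with at least 3 sites within 50 kb, and other listed genes are named where they make up a count. Some genes that this rule covers are not reported here. The class and the gene lists were chosen with earlier results of these data known. Groups came from the sample titles. Alternatives to the list length, merging distance, windows, masking and sex chromosomes were tried.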

Additional observations from a re-analysis of the deposited data

How the results depend on the processing

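No paired analysis was possible because the lists do not keep the replicates apart, and leaving out each replicate was not run for the same reason. Merging at 0 bp or 1000 bp and leaving out the sex chromosomes kept the shares and contents computed for them inside their intervals, with 5656 to 6115 sites. With the higher-scoring 50% of each list, the rule gave 3921 sites, with GC content 38.7%, masked bases 19.3%, AP-1 9.87%, SOX 17.6%, KLF 10.2% and 25.4% in the most AT-rich bins. With equal numbers of highest-scoring peaks (35226 per list), 19.3% lay within 5 kb of a start site, GC content was 38.7%, AP-1 9.94% and the AT-rich share 26.9995%. Day 5 peaks of at least the median fold gave 2170 sites, with 14.5% within 5 kb of a start site, GC content 36.5%, AP-1 11.0%, octamer 4.42%, SOX 18.3%, KLF 7.28% and an AT-rich share of 35.8%. Shares near a start site were 4.20% within 1 kb, 47.6% within 20 kb and 9.78% within 5 kb of protein-coding starts. AP-1, octamer, SOX and KLF shares were 4.52%, 1.97%, 8.16% and 4.37% in 100 bp windows, 16.2%, 8.11%, 28.6% and 15.2% over whole peaks (GC content 38.6%), and 7.82%, 2.92%, 13.2% and 5.41% without masked bases. A longer window holds more matches by construction, and the cause of the other shifts was not tested. The AT-rich share was 31.5% away from start sites. Within 20 kb, 26 listed genes (11.0%) had a site, beside 8.38% of all protein-coding genes. Within 100 kb, 66 listed genes (27.8%) had one, beside 27.5%. The AP-1 difference from day 10 only regions stayed positive in all 4 alternatives tried (4.47 to 5.81 points). The alternatives for the AT-rich share, and the AP-1 difference in the shortened lists, were added after seeing the data.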
